A study of Mus musculus with 41 samples.

Results

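Expression of 10 chemokine genes, Cxcl1, Cxcl9, Cxcl10, Cxcl12, Cxcl13, Cxcl16, Ccl2, Ccl6, Ccl9 and Cx3cl1, was followed in mouse liver from healthy tissue through steatohepatitis (NASH) to hepatocellular carcinoma (HCC). The question was which of them rise at NASH and which do so in tumours alone. The genes were found by symbol among the 24511 genes of the deposited table, and all 10 passed the filter on low values (a mean of at least 3 on the table's log2 scale), which kept 12337 genes. PolyA RNA had been sequenced from livers and liver tumours of male C57BL/6 mice, and the labels give no age, no duration of diet and no meaning for the genotype names. Of 41 libraries, 35 could be placed in 11 groups. Livers labelled healthy and NC came from B6, MupHe, IgAkMup and CD8kMup mice (n = 3 each). Livers labelled as healthy fatty livers of high-fat diet (HFD) controls came from B6 and IgAkCLM mice (n = 3 each). NASH livers on HFD came from MupHe and IgAkMup mice (n = 3 each), and HCC on HFD came from MupHe (n = 4), IgAkMup (n = 4) and CD8kMup mice (n = 3). The remaining 6 columns carry a name that fits both CD8kMup NASH and CD8kCLM HFD controls and were not analysed here.

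Chemokines are small secreted proteins that bind receptors on leukocytes and guide them into tissue, and they are classed as CXC, CC or CX3C by the spacing of their first cysteines. Cxcl16 and Cx3cl1 differ from the rest in being made as membrane proteins with a chemokine head on a stalk, which the proteases Adam10 and Adam17 cut free. Ccl2 calls Ccr2-bearing monocytes out of the blood, Cxcl1 acts on neutrophils through Cxcr2, and Cxcl9 and Cxcl10 are interferon-induced and act through Cxcr3 on T and NK cells. Cxcl12 and Cxcl13 are homeostatic chemokines of stroma, acting through Cxcr4 and Cxcr5, and Ccl6 and Ccl9 are mouse CC chemokines made largely by myeloid cells.

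Values are regularized log2 (rlog2) expression, which shrinks low-count genes toward their mean, so differences of low genes are understated and levels are not compared between genes. Read depth is not known from the table. The labels do not say whether libraries of a group are separate animals, so p-values measure only the spread between these libraries. Both HFD control genotypes lack Mup in their names and both NASH genotypes carry it, so stage and genotype cannot be told apart in that comparison. Column names also carry tags (Tri NC, Tri N, SS N, SS H) that change with stage and are not explained. Summed hepatocyte marker expression was high in every group (log2 sums of 18.74 to 20.44 in tumours and 19.63 to 19.98 in NASH), as the tissue label has it, although 4 of its 7 genes were lower in HCC than at NASH. The tumours MupHe HCC 3, IgAkMup HCC 5 and IgAkMup HCC 9 stood apart on the second principal component (scores of -29.1, -28.4 and -35.6, against -5.1 to 24.7 in the other tumours), and results that change without them are given both ways. Cd8a, whose symbol resembles the name CD8kMup, was not lower in CD8kMup NC livers (3.80 ± 0.43, SD, n = 3) than in MupHe NC livers (3.39 ± 0.30, SD, n = 3).

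The genes lie in a few clusters. In the GENCODE annotation of GRCm38 (mm10), Cxcl9 (chr5:92321347-92328079), Cxcl10 (chr5:92346638-92348889), Cxcl1 (chr5:90891241-90893115) and Cxcl13 (chr5:95956951-95961068) lie on chromosome 5. Ccl9 (chr11:83572919-83578636) and Ccl6 (chr11:83587882-83593087) are neighbours on chromosome 11, where Ccl2 (chr11:82035571-82037453) and Cxcl16 (chr11:70453983-70459984) also lie. Cxcl12 (chr6:117168535-117181367) and Cx3cl1 (chr8:94772009-94782427) stand alone. Cxcl10 overlaps Art3 on the other strand, and Cxcl16 likewise overlaps Zmynd15, Ccl2 overlaps Gm17268 and Ccl6 overlaps E230016K23Rik. The kit marks strand, but whether counting used it is not given in the sources used here. Art3 group means ranged from 3.92 to 4.41 and those of E230016K23Rik from -1.36 to -1.28. Zmynd15 was highest in the 3 HCC groups (means of 5.03 to 5.15, against 4.43 to 4.86 in the others), as was Cxcl16, and its part in the Cxcl16 values was not tested.

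Because the inflammatory chemokines are textbook targets of NF-kB and interferon signalling, the 250 bases upstream of the RefSeq start (GRCm38.p6) were searched on both strands in the 8 of 10 genes that had an entry, Cxcl16 and Ccl2 being without one. The motifs were the NF-kB consensus, the interferon-stimulated response element (ISRE, TTTC and TTTC spaced by 2 bases) and the interferon-gamma activated site (GAS, TTCNNNGAA). Of 32851 mouse promoter windows of this length, 7.25% hold the NF-kB consensus, 2.98% the ISRE and 7.02% the GAS. NF-kB matches were found in Cxcl1, Cxcl10 and Ccl9, the ISRE in Cxcl10 alone, and the GAS in none of the 8. The windows of the 3 genes with a match, and that of Cxcl9, the neighbour of Cxcl10 that shares its receptor but holds no match, read 5′ to 3′ on the gene's strand as follows, with matched bases in capitals.
Cxcl10 (chr5:92348890-92349139, minus strand): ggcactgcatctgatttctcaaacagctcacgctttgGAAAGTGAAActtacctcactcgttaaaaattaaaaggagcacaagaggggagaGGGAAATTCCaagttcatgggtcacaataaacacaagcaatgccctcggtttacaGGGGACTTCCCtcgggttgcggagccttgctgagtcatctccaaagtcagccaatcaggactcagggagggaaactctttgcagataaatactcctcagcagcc
Cxcl9 (chr5:92328080-92328329, minus strand): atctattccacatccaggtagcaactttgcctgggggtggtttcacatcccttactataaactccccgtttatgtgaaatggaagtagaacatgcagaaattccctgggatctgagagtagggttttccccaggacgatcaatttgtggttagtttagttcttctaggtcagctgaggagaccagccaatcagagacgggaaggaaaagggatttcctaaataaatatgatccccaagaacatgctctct
Cxcl1 (chr5:90890995-90891244, plus strand): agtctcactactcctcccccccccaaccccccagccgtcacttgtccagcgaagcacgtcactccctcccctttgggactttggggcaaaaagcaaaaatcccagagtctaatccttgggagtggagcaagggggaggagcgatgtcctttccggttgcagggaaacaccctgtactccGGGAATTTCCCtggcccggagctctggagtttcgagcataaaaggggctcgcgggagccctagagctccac
Ccl9 (chr11:83578637-83578886, minus strand): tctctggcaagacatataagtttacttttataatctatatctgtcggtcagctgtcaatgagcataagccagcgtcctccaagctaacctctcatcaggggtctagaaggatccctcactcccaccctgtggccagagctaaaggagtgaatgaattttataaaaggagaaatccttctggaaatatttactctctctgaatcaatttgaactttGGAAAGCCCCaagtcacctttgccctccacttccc
In the Cxcl10 window the first capitals are the ISRE and the next runs are NF-kB matches, the last of them 2 overlapping ones. The run in Cxcl1 also holds 2 overlapping NF-kB matches, and the run in Ccl9 holds 1. A match is a description of the letters and not evidence of a bound factor.

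At NASH, none of the 10 chemokines passed the test against HFD controls, where 1.32% of all genes did (limma, Benjamini-Hochberg adjusted p under 0.05). At an unadjusted limma p under 0.05, 1504 genes passed, among them Cxcl10 (0.0138) and Cxcl16 (0.0447). The median difference over the 10 genes was 0.27 log2, against -0.0019 over all genes. Cxcl10 had the largest difference, 0.48 ± 0.18 log2 (SE, adjusted p = 0.235), with a 95% confidence interval from 0.11 to 0.85. Cx3cl1 and Ccl2 both differed by 0.39 log2, with adjusted p of 0.476 and 0.594. The intervals leave room for a modest rise: their upper ends were 0.93 for Ccl2, 0.82 for Cx3cl1 and 0.52 for Cxcl16, whereas Cxcl12 differed by 0.01 log2 with an interval from -0.37 to 0.39. In every one of the 10 genes the ranges of NASH and HFD control libraries overlapped. The share of all genes that overlap in this way was not counted, so this is a description.

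The NASH difference was also computed within each column tag, where the pairs differ in the genotype of both the NASH livers and the controls. The test of the difference between the pairs, which 0.0567% of all genes passed, gave an adjusted p of 1 for all 10 genes, with unadjusted p of 0.0694 for Ccl2 and 0.0708 for Cxcl10, so the values within each pair are a description. Cxcl10 stood at 5.44, 5.97 and 5.55 in the MupHe NASH libraries and at 4.58, 4.99 and 4.91 in the IgAkCLM HFD controls, which share the tag Tri N. It stood at 5.42, 5.93 and 5.97 in the IgAkMup NASH libraries and at 5.49, 4.98 and 6.44 in the B6 HFD controls, which share the tag SS N. The first pair did not overlap, whereas B6 HFD control 3 exceeded every NASH library. The differences were 0.82 ± 0.26 log2 within Tri N (SE, adjusted p = 0.17) and 0.14 ± 0.26 within SS N (adjusted p = 0.978). With B6 HFD control 3 left out, the pooled Cxcl10 difference was 0.68 log2 and passed the test (adjusted p = 0.0255), and with libraries weighted by their spread it was 0.61 (adjusted p = 0.00284). B6 HFD controls 1 and 3 also lay close to the NASH libraries on the first principal component (scores of -8.7 and -5.1, against -20.2 to -7.9). On the second they lay beyond every NASH library (26.9 and 26.5, against 6.9 to 21.5). Summed recruited macrophage markers ran from 10.56 to 11.32 in B6 and from 10.10 to 10.37 in IgAkCLM HFD controls, and their part in the Cxcl10 values was not tested.

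Ccl2, the monocyte attractant, stood at 4.24, 4.97 and 3.95 in MupHe NASH against 3.40, 3.53 and 3.58 in IgAkCLM HFD controls, a difference of 0.88 ± 0.37 log2 (adjusted p = 0.38). Within SS N it stood at 3.69, 4.47 and 4.53 in IgAkMup NASH against 4.67, 3.81 and 4.54 in B6 HFD controls, a difference of -0.11 ± 0.37. NASH libraries lay above every control in the first pair and overlapped them in the second. Cxcl16 differed by 0.48 ± 0.18 log2 within Tri N (adjusted p = 0.274) and 0.04 ± 0.18 within SS N. Within Tri N, 5 of the 10 genes had all NASH libraries above all controls (Cxcl9, Cxcl10, Cxcl16, Ccl2 and Cx3cl1), and within SS N only Cxcl1 did. The share of all genes whose libraries separate in this way was not counted, so these separations are a description. No member passed the test in either pair, where 0.559% and 0.251% of all genes did.

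**Figure D1:**
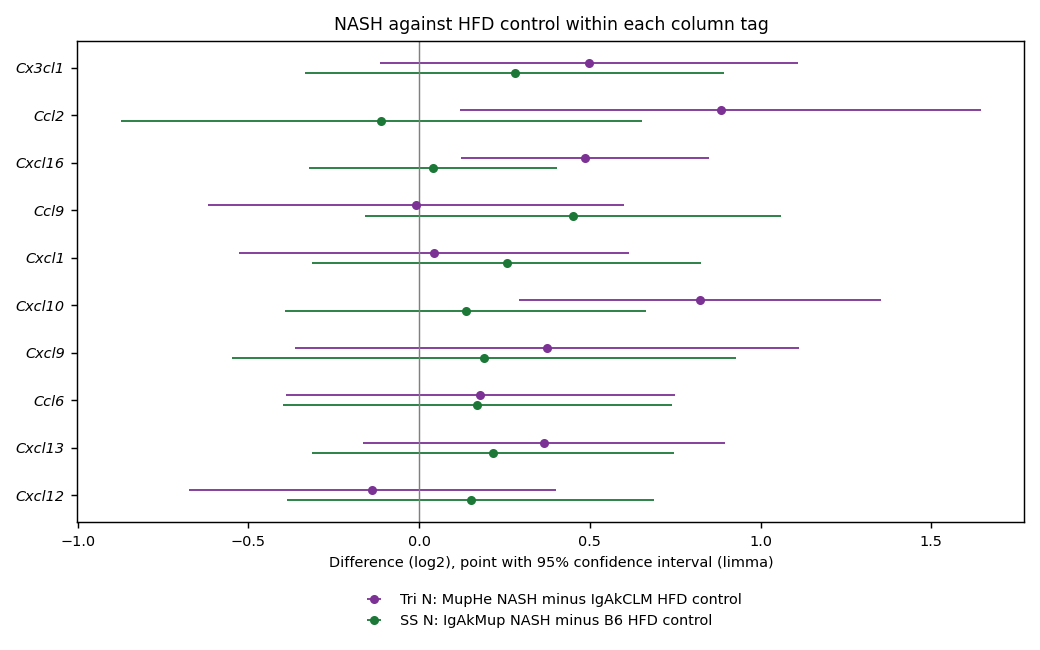
NASH minus HFD control for each chemokine within the column tags Tri N (MupHe NASH and IgAkCLM HFD controls) and SS N (IgAkMup NASH and B6 HFD controls), 3 libraries a group. The x axis is the rlog2 difference (log2) with its 95% confidence interval from limma, and Ccl2 runs from 0.88 in Tri N to -0.11 in SS N.

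B6 HFD controls had themselves more of 2 interferon-induced chemokines than B6 NC livers. Cxcl9 was at 6.54, 6.65 and 7.15 in the NC libraries and at 7.57, 7.39 and 8.38 in the HFD controls, a rise of 1.00 ± 0.36 log2 (adjusted p = 0.0478). Cxcl10 was at 4.63, 4.91 and 4.81 against 5.49, 4.98 and 6.44, a rise of 0.85 ± 0.26 (adjusted p = 0.0192). HFD libraries lay above NC libraries in both genes, and 20.6% of all genes passed this test, 9.59% as higher. Both calls were lost without B6 NC 1 or without B6 HFD control 3, and diet, column tag and listed processing tools cannot be told apart here. Ccl2 differed by 0.88 ± 0.37 without passing (adjusted p = 0.0961).

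NASH livers were also set against NC livers of the same genotypes. Diet, column tag and the processing tools listed change together with stage here and cannot be told apart from it, and B6 HFD controls, without NASH, had a Cxcl10 difference of 0.85 from B6 NC. Cxcl10 was the only one of the 10 to pass as higher in NASH livers, and Ccl9 the only one to pass as lower. Cxcl10 stood at 4.97, 4.46 and 4.64 in MupHe NC and at 4.85, 5.26 and 4.92 in IgAkMup NC. All of these lay below the 6 NASH libraries (5.42 to 5.97), a rise of 0.86 ± 0.18 log2 (adjusted p = 0.00177). The rise passed in each genotype, by 0.96 in MupHe (adjusted p = 0.0463) and 0.77 in IgAkMup (adjusted p = 0.0485), tests that 1.93% and 12.9% of all genes passed. Ccl9 fell by 0.71 ± 0.21 log2 (adjusted p = 0.02), with 9.05 to 9.44 in the NC libraries of both genotypes and 8.17 to 8.95 at NASH. The fall passed in neither genotype alone (-0.98 in MupHe, adjusted p = 0.0922, and -0.45 in IgAkMup, adjusted p = 0.353). Of all genes, 7.55% passed this test as higher and 8.46% as lower. Without IgAkMup NASH 3, 1 of the 10 genes passed in place of 2. Ccl2 differed by 0.52 ± 0.26 log2 and Cx3cl1 by 0.11 ± 0.21, neither passing. When these groups were fitted alone 6 of the 10 genes passed, but that fit called 4459 of all genes against 1976 in the main fit. In NC livers none of the 10 chemokines passed between the Mup genotypes and B6 (0.203% of all genes did, and 1006 genes at an unadjusted p under 0.05, Cxcl9 and Cxcl16 among them).

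Most of the 10 chemokines changed between NASH and HCC. Between the MupHe and IgAkMup tumours and the NASH livers of the same genotypes, 6 of 10 chemokines rose (Cx3cl1, Ccl2, Cxcl16, Ccl9, Cxcl1 and Cxcl10), 2 fell (Cxcl12 and Cxcl13) and Cxcl9 and Ccl6 did not pass. Of all genes, 48.4% passed this test, 25.5% as higher and 22.9% as lower, so a call alone says little about any one gene. The median difference over the 10 genes was 0.95 log2, against 0.0133 over all genes. The MupHe groups differ in tag (Tri N and SS H). Between groups that share SS, 6 of the 10 passed in IgAkMup (all of the 8 but Cxcl10 and Ccl9, with 43.8% of all genes), and the same 8 passed in MupHe HCC against IgAkMup NASH (with 29.2%), which also crosses genotypes.

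**Figure D2:**
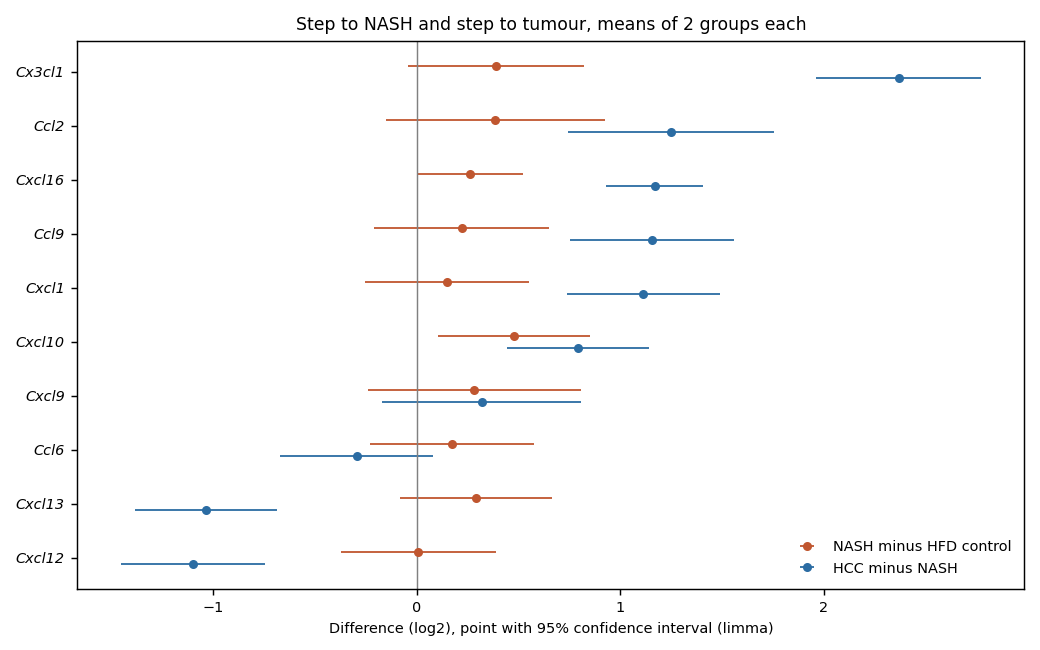
NASH minus HFD control and HCC minus NASH for each chemokine, each as the mean of 2 groups minus the mean of 2 groups. The x axis is the rlog2 difference (log2) with its 95% confidence interval from limma. Cx3cl1 lies furthest right at the tumour step (2.37) and Cxcl12 furthest left (-1.10), while no NASH step exceeds 0.48, and both steps share the NASH libraries.

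The membrane-bound chemokines separated tumours from all other tissue. Cx3cl1, the ligand of the monocyte and macrophage receptor Cx3cr1, stood at 7.22, 7.00, 6.41 and 6.26 in the MupHe HCC libraries, at 6.92, 6.00, 7.14 and 6.77 in IgAkMup HCC and at 6.15, 5.71 and 5.56 in CD8kMup HCC. It stood at 5.03, 4.0 and 3.92 in MupHe NASH and at 4.10, 4.35 and 4.67 in IgAkMup NASH. All 11 tumours thus lay above all livers without tumour, whose values ran from 3.62 to 5.03, and MupHe NASH 1 was the highest of the latter. How many of all genes separate tumours in this way was not counted. The tumour step was 2.37 ± 0.20 log2 (adjusted p = 2.52e-10), with 2.41 in MupHe and 2.33 in IgAkMup, where 30.7% and 43.8% of all genes passed.

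Cxcl16, the ligand of Cxcr6 on T and NKT cells, did the same at a smaller size. It ranged from 7.84 to 8.52 in MupHe HCC, from 7.63 to 8.44 in IgAkMup HCC and from 7.59 to 7.99 in CD8kMup HCC, against 6.32 to 7.33 in all livers without tumour, with no overlap. Its tumour step was 1.17 ± 0.12 log2 (adjusted p = 5.93e-09), close to equal in MupHe (1.21) and IgAkMup (1.12). Among all 12 NC libraries it varied only between 6.61 and 7.12.

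Ccl2 rose with more spread between libraries. It stood at 5.14, 5.83, 5.16 and 4.91 in MupHe HCC and at 6.85, 5.15, 5.24 and 6.18 in IgAkMup HCC, a tumour step of 1.25 ± 0.25 log2 (adjusted p = 0.000139). The highest values belonged to 3 libraries, IgAkMup HCC 5, IgAkMup HCC 9 and CD8kMup HCC 4 (6.16), and MupHe HCC 7 overlapped MupHe NASH 2 (4.97). IgAkMup HCC 5 and 9 are among the tumours that stood apart, and without the 3 such tumours the step was 0.82 log2 and still passed (adjusted p = 0.00363). By genotype it passed in IgAkMup (1.63 ± 0.35, adjusted p = 0.000479) and not in MupHe (0.87 ± 0.35, adjusted p = 0.0572), and the difference between genotypes, 0.75 ± 0.49, did not pass (adjusted p = 0.345).

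Ccl9 was the one chemokine whose tumour step differed between MupHe and IgAkMup. The MupHe step crosses column tags (Tri N and SS H) and the IgAkMup step stays within SS, so genotype and tag cannot be told apart here. It rose from 8.46, 8.45 and 8.17 in MupHe NASH to 9.57, 10.03, 11.25 and 10.43 in MupHe HCC, a step of 1.96 ± 0.28 log2 (adjusted p = 6.44e-06). In IgAkMup it stood at 8.86, 8.49 and 8.95 at NASH and at 8.79, 9.13, 9.31 and 9.23 in HCC, a step of 0.35 ± 0.28 that did not pass (adjusted p = 0.314). The MupHe groups lay wholly apart and the IgAkMup groups overlapped. The difference of the steps was -1.61 ± 0.39 log2 (IgAkMup minus MupHe, adjusted p = 0.0103, a test that 5.20% of all genes passed as lower). IgAkMup HCC (9.12 ± 0.23, SD, n = 4) was near the level of IgAkMup NC (9.22 ± 0.15, SD, n = 3). Within IgAkMup alone, NASH against NC had not passed (-0.45 log2, adjusted p = 0.353).

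Cxcl1, the neutrophil attractant, rose by 1.11 ± 0.18 log2 (adjusted p = 1.46e-05). It stood at 6.27, 5.59, 6.80 and 6.41 in MupHe HCC and at 6.48, 7.41, 6.31 and 5.83 in IgAkMup HCC, all above the NASH range of 4.88 to 5.52. The CD8kMup tumours, at 5.84, 5.46 and 5.73, reached into that range. Cxcl1 in MupHe NC livers (5.79 to 6.09) overlapped the tumours, and MupHe HCC differed from MupHe NC by 0.30 ± 0.26 log2 without passing (adjusted p = 0.371). Summed neutrophil markers ranged from 5.77 to 6.60 in tumours and from 5.71 to 6.14 in NASH livers, and 1 of 3 kept markers (Csf3r) rose at this step. All 3 passed as higher in HCC against NC, as 31.7% of all genes did, and each had its highest group mean in IgAkMup HCC. Ly6g, Mpo and Elane were near or below 0 on this scale. The neutrophil markers are low genes, whose differences are understated here. Their part in the Cxcl1 values was not tested.

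Among the interferon-induced pair, Cxcl10 rose by 0.79 ± 0.17 log2 (adjusted p = 0.000367) and Cxcl9 did not pass. Cxcl10 stood at 6.45, 6.68, 7.14 and 6.91 in MupHe HCC and at 5.73, 6.57, 6.40 and 6.16 in IgAkMup HCC, against 5.42 to 5.97 at NASH. Only IgAkMup HCC 5 lay in the NASH range, and the step passed in MupHe (1.14 ± 0.24, adjusted p = 0.000753) but not in IgAkMup (0.45 ± 0.24, adjusted p = 0.136), with no pass for their difference (-0.70, adjusted p = 0.194). Cxcl9 ranged from 7.56 to 8.29 in MupHe HCC and from 7.06 to 8.97 in IgAkMup HCC, which spans the NASH range of 7.27 to 8.10, and its step was 0.32 ± 0.24 (adjusted p = 0.279). Without the 3 tumours that stood apart, which held the 3 lowest Cxcl9 values among the MupHe and IgAkMup tumours, the step was 0.80 log2 and passed (adjusted p = 0.00119).

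The homeostatic chemokines fell in tumours. Cxcl12 stood at 9.84, 10.46, 9.02 and 9.29 in MupHe HCC and at 9.49, 8.59, 9.81 and 9.86 in IgAkMup HCC, below every NASH library (10.56 to 10.76), and it fell by 1.10 ± 0.17 log2 (adjusted p = 7.9e-06). In the NC livers it ran from 10.51 to 10.96. B6 HFD controls 1 and 3, at 10.25 and 10.28, were the only livers without tumour below the highest tumour. Cxcl13, the B cell attractant, stood at 3.41, 3.20, 3.06 and 3.00 in MupHe HCC and at 3.18, 3.57, 3.23 and 3.08 in IgAkMup HCC, against 4.19 to 4.33 at NASH, and fell by 1.04 ± 0.17 (adjusted p = 1.48e-05). B6 HFD control 3 (3.38) and IgAkCLM HFD control 2 (3.46) lay within the range of the tumours. Tumour values lay just above the filter, where this scale shrinks differences. In bulk tissue, fewer cells of a type and less RNA per cell cannot be told apart.

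Several cell type markers moved at the same step, at which 48.4% of all genes passed. Of the hepatocyte markers, 4 of 7 fell (Ttr, Cps1, Serpina1c and Tat), with a median over the list of -0.92 log2. Of the T and NK cell markers, 2 of 4 above the filter rose (Cd8a and Nkg7), as did 3 of 6 cholangiocyte markers, Sox9 and Spp1 among them. Of the Kupffer cell markers, 6 of 7 fell and Adgre1 did not pass, with a median over the list of -2.19 log2. Their summed level ranged from 9.47 to 12.06 in MupHe HCC and from 8.90 to 11.30 in IgAkMup HCC, but from 11.68 to 12.17 in CD8kMup HCC, against 11.57 to 12.27 at NASH. That sum is carried by Cd5l and Clec4f. In CD8kMup HCC, Timd4 (4.46 ± 0.09, SD, n = 3), Marco (4.66 ± 0.58) and Cd163 (4.35 ± 0.25) lay below every NASH library, and the other 4 Kupffer markers overlapped them. Cxcl12 and Cxcl13 in these tumours ran from 9.46 to 9.98 and from 3.12 to 3.26. Recruited macrophage markers rose in 7 of 8 cases (all but Gpnmb), with summed levels of 11.60 to 15.34 in all tumours against at most 11.51 at NASH. The upper end of that sum is carried by Spp1 (up to 15.24 in IgAkMup HCC), which is also on the cholangiocyte list. Of the endothelial markers, Pecam1, Cdh5 and Plvap rose and the sinusoidal Stab2 (-1.14) and Clec4g (-2.28) fell with Vwf, and the list's summed level ran from 10.74 to 11.59 in tumours and from 11.02 to 11.29 at NASH. Of 9 stellate cell and fibroblast markers, 5 rose, led by Col1a1 (1.43), and Lrat (-1.51), Dcn (-1.41) and Reln (-1.28) fell, with summed levels of 9.35 to 12.66 in tumours and 11.57 to 11.92 at NASH. The part of these cell types in the chemokine values was not tested.

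Ccl6 did not pass at the tumour step, -0.30 ± 0.18 log2 (adjusted p = 0.191), with tumours from 5.99 to 7.55 around the NASH range of 6.47 to 7.19. It did pass as lower when either of its 2 highest tumours in this comparison was left out, MupHe HCC 2 (-0.43, adjusted p = 0.0342) or IgAkMup HCC 8 (-0.42, adjusted p = 0.0392).

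**Figure D3:**
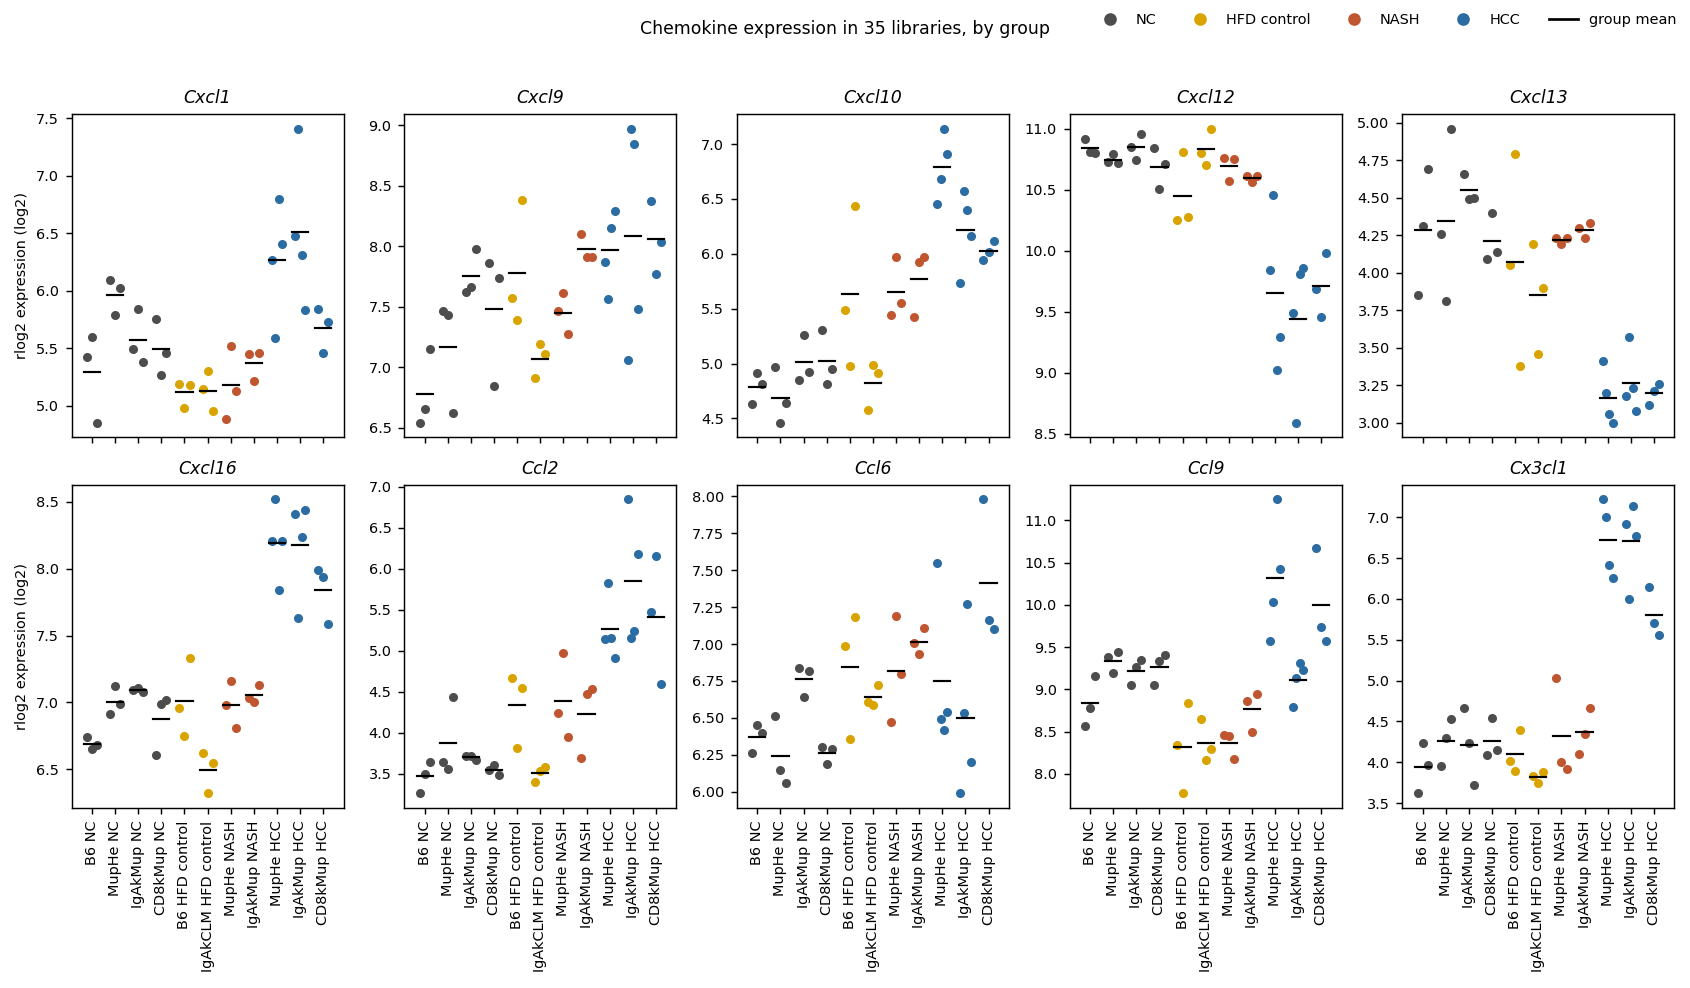
Expression of each chemokine (y axis, rlog2 on a log2 scale that differs between panels) in 35 libraries by group, points being libraries and black lines group means. For Cx3cl1 and Cxcl16 every HCC library lies above every NC, HFD control and NASH library, while Cxcl12 and Cxcl13 lie lower in HCC than in NASH.

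Which genes moved more at the tumour step than at the NASH step was tested directly, as the difference of the steps, a test that 15.4% of all genes passed (7.38% as higher and 7.99% as lower). Cx3cl1 (1.98 ± 0.36 log2, adjusted p = 0.000413) and Cxcl16 (0.91 ± 0.21, adjusted p = 0.00433) rose more at the tumour step. Cxcl1 also passed as higher (0.96 ± 0.33, adjusted p = 0.0488), but not in 12 of 20 fits that left out 1 library (adjusted p of up to 0.147), nor in 4 of 8 other settings. Cxcl13 (-1.33 ± 0.31, adjusted p = 0.00425) and Cxcl12 (-1.11 ± 0.31, adjusted p = 0.0167) passed as lower, Cxcl12 not in a fit of these groups alone (adjusted p = 0.0856). For Ccl9 (0.94 ± 0.36, adjusted p = 0.0731), Ccl2 (0.86 ± 0.45, adjusted p = 0.198) and Cxcl10 (0.31 ± 0.31, adjusted p = 0.537) the steps were not shown to differ. Ccl9 did pass with quantile normalization (adjusted p = 0.0489), with weights per library (0.008), without B6 HFD control 2 (0.036) and without MupHe HCC 2 (0.0237). The interval for Cxcl10 ran from -0.32 to 0.95.

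Tumours set against NC livers of their own genotype bring in the CD8kMup tumours. Here too diet, column tag and listed processing tools change with stage, and whether the 2 sets were normalized together is not given in the sources used here. Over the 3 genotypes together all 10 chemokines passed, 8 as higher and Cxcl12 and Cxcl13 as lower (-1.16 log2 each), where 62.4% of all genes passed, 31.7% as higher and 30.6% as lower. Cx3cl1 (2.17 ± 0.17), Ccl2 (1.80 ± 0.21), Cxcl10 (1.44 ± 0.14) and Cxcl16 (1.08 ± 0.10) were higher by over 1 log2, and the remaining 4 rose by 0.47 to 0.57. Cx3cl1, Cxcl16, Ccl2 and Cxcl10 were higher, and Cxcl12 and Cxcl13 lower, in all 11 tumours than in all NC livers of these genotypes, and the share of all genes that do so was not counted. The same 6 genes passed in each genotype alone. Beyond them, Ccl9 passed in MupHe (0.98 ± 0.28), Cxcl1 in IgAkMup (0.94 ± 0.26) and Ccl6 in CD8kMup (1.16 ± 0.28), where 40.1%, 45.0% and 33.8% of all genes passed.

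**Figure D4:**
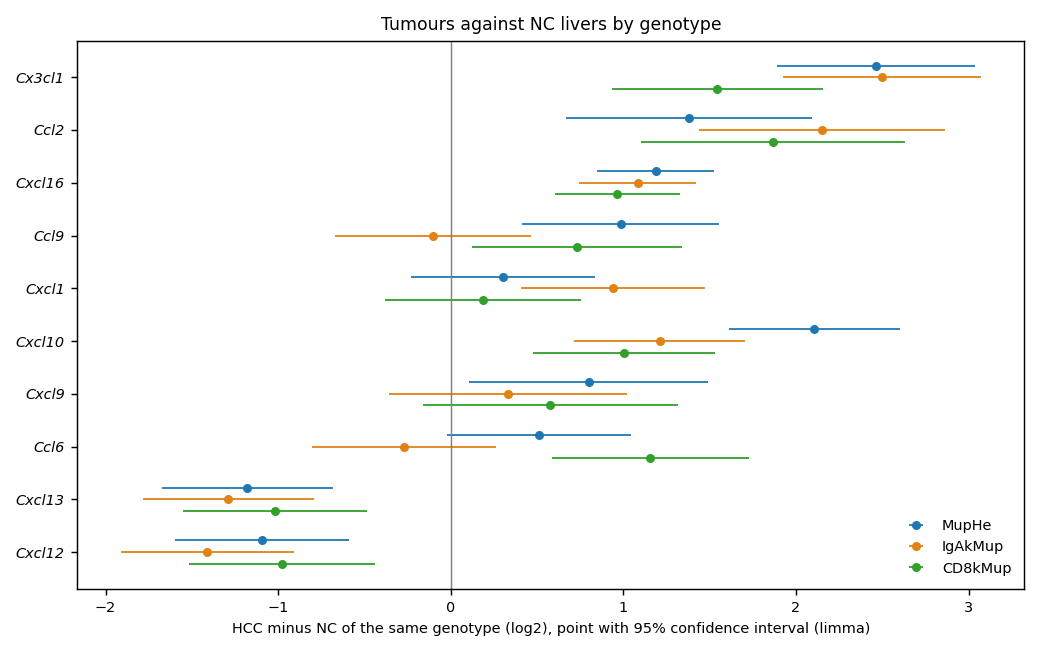
HCC minus NC liver of the same genotype for each chemokine (x axis, rlog2 difference on a log2 scale with its 95% confidence interval from limma), for MupHe, IgAkMup and CD8kMup (4, 4 and 3 tumours, 3 NC livers each). Ccl6 differs most clearly between genotypes, at 1.16 in CD8kMup and -0.27 in IgAkMup.

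Ccl6 was the only gene of the 10 whose HCC against NC difference differed between genotypes, by 1.43 ± 0.38 log2 between CD8kMup and IgAkMup (adjusted p = 0.0426, a test that 2.35% of all genes passed). It stood at 7.98, 7.16 and 7.10 in CD8kMup HCC and at 5.99, 6.53, 7.27 and 6.20 in IgAkMup HCC, which overlapped through IgAkMup HCC 8. The lowest values, 5.99 and 6.20, belonged to IgAkMup HCC 5 and 9, which stood apart, and this difference was not refitted without them. In the NC livers it ran from 6.19 to 6.30 in CD8kMup and from 6.64 to 6.84 in IgAkMup, the opposite order.

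Of the 3 pairs of tumour groups, CD8kMup and IgAkMup had the most chemokines past the test, 4 of 10, or 2 without the 3 tumours that stood apart. Ccl6 (0.92 ± 0.26 log2, adjusted p = 0.0124) and Ccl9 (0.88 ± 0.28, adjusted p = 0.0232) were higher in CD8kMup HCC, and Cxcl1 (-0.83 ± 0.26, adjusted p = 0.0217) and Cx3cl1 (-0.90 ± 0.28, adjusted p = 0.0208) lower, where 22.9% of all genes passed, 11.8% as higher and 11.2% as lower. None of the 4 passed in a fit of these 2 groups alone, which called 335 of all genes against 2831 in the main fit. IgAkMup HCC had less Ccl9 than MupHe HCC (-1.20 ± 0.26, adjusted p = 0.00431, 10.1% of all genes passing), with all 4 IgAkMup tumours below all 4 MupHe tumours. This call too was lost in a fit of the pair alone, but that fit called 0 of all genes and so says nothing particular to Ccl9. Between CD8kMup and MupHe tumours none of the 10 genes passed (1.32% of all genes passing, 2004 at an unadjusted p under 0.05), and 1 did without the 3 tumours that stood apart. Cx3cl1 and Cxcl10, which did not pass (-0.92 ± 0.28 and -0.77 ± 0.24, adjusted p of 0.0923 and 0.104), had all CD8kMup tumours below all MupHe tumours. The share of all genes that separate in this way was not counted, so this is a description.

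Receptor genes were described beside their ligands from a list of 23, of which 11 passed the filter on low values. None passed at NASH against HFD controls, while at the tumour step 8 rose and Ackr4, a scavenging receptor, fell, with a median of 0.43 log2 over the list, where 48.4% of all genes passed, 25.5% as higher and 22.9% as lower. Cx3cr1, the receptor of Cx3cl1, rose by 2.00 ± 0.25 (adjusted p = 2.9e-07), Cxcr4, the receptor of Cxcl12, by 1.92 ± 0.20 (adjusted p = 8.71e-09), Ccr2, the receptor of Ccl2, by 1.24 ± 0.22 (adjusted p = 3.81e-05) and Ackr3, which also binds Cxcl12, by 0.76 ± 0.15 (adjusted p = 0.000121). Cxcl12 and its receptor Cxcr4 thus moved in opposite directions: Cxcr4 was at 4.71 ± 0.28 and 4.19 ± 0.34 in MupHe and IgAkMup NASH (SD, n = 3) and at 6.02 ± 0.80 and 6.72 ± 0.20 in the corresponding tumours (SD, n = 4). Cxcr6, the receptor of Cxcl16, did not pass (0.37, adjusted p = 0.0619), and Cxcr3, that of Cxcl9 and Cxcl10, rose by 0.38 (adjusted p = 0.000738). Cxcr2 and Cxcr5, the receptors of Cxcl1 and Cxcl13, lay under the filter, with means of 1.64 and 1.84.

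**Figure D5:**
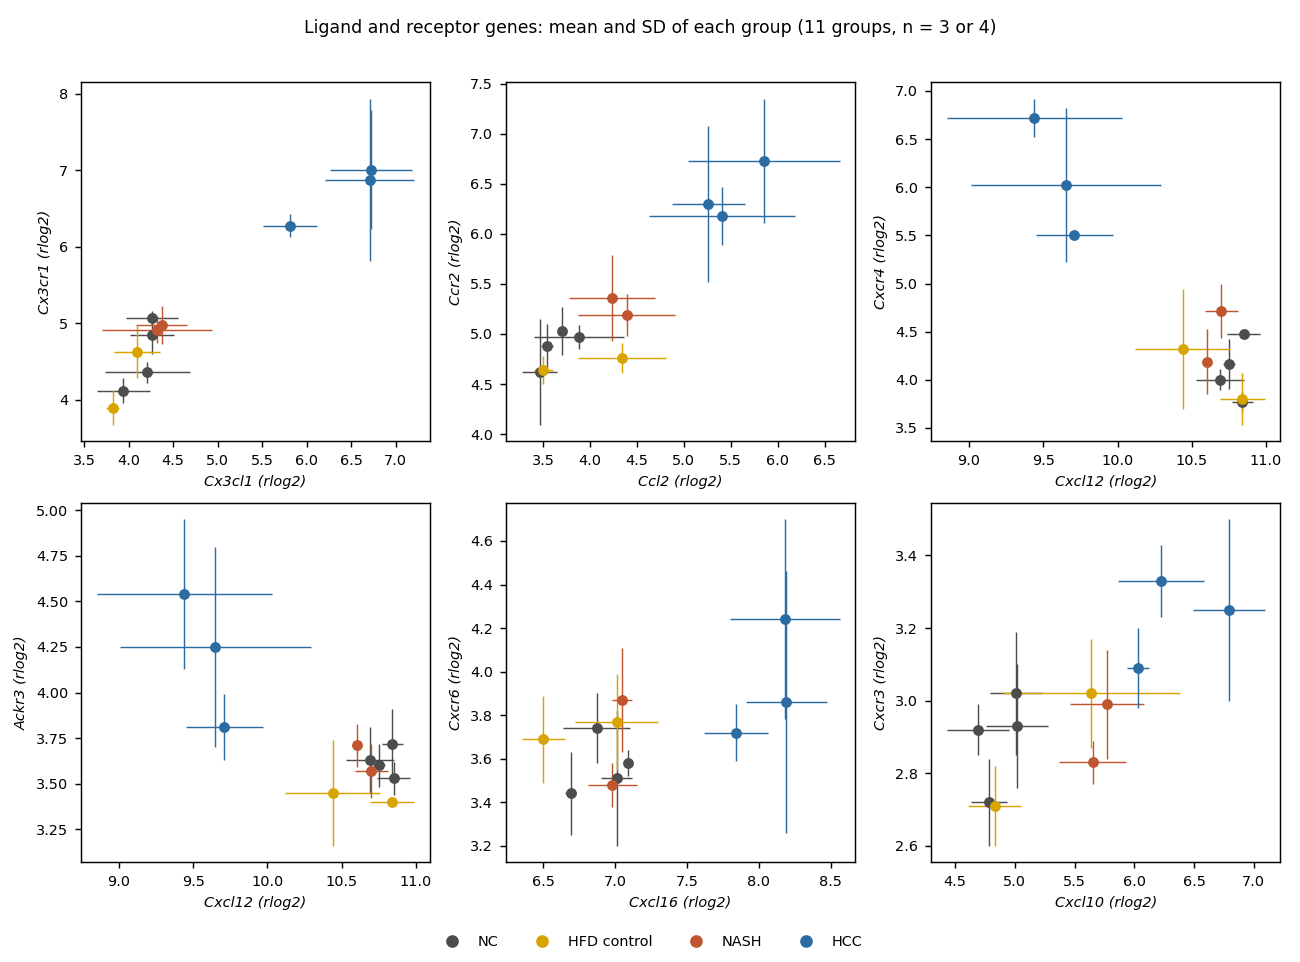
Group means of a ligand gene (x axis, rlog2) and of its receptor gene (y axis, rlog2) with the SD over 3 or 4 libraries as bars, for 6 pairs and 11 groups coloured by stage. The 3 HCC groups lie at high Cx3cl1 and high Cx3cr1, and at low Cxcl12 and high Cxcr4.

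Genes that induce chemokines were taken from a list of 24, of which 19 passed the filter. At the tumour step 11 rose and Il1a and Il1r1 fell, 13 of 19 against 48.4% of all genes, with a median of 0.27 log2, and none passed at NASH against HFD controls. The leading ones were Ltb (1.59 ± 0.18), a lymphotoxin subunit, Relb (1.40 ± 0.14) and Nfkb2 (1.24 ± 0.13), subunits of the alternative NF-kB pathway, and Tnfaip3 (1.23 ± 0.19), an NF-kB feedback gene, each of which also passed as higher in the difference of the steps. In B6 HFD controls against B6 NC livers 5 of the 19 passed as higher and none as lower, where 9.59% of all genes passed as higher. Nfkb2 (0.80, adjusted p = 0.00472) and Relb (0.78, adjusted p = 0.0122) were among them, so their rise was not particular to tumours. Tnfaip3 (0.68 ± 0.28, adjusted p = 0.0874) and Ltb (0.36 ± 0.28, adjusted p = 0.384) differed in the same direction without passing. Ifng, Tnf and Il6 lay under the filter, and Il17a was listed at 0 in every library.

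Of 12 genes that process or display chemokines, 10 passed the filter, none of them passing the test at NASH against HFD controls. At the tumour step 6 rose, with Mmp12 (1.08 ± 0.40), Mmp14 (1.01 ± 0.11) and Hspg2 (0.99 ± 0.13) leading, and 3 fell, namely Dpp4 (-1.09 ± 0.17), the protease that trims Cxcl10 and Cxcl12, and the syndecans Sdc4 and Sdc1, 9 of 10 against 48.4% of all genes. Adam10, which sheds Cx3cl1 and Cxcl16, rose by 0.45 log2 (adjusted p = 0.00097), and Adam17 did not pass (0.11). Of 27 other chemokine ligands only 7 passed the filter. Cxcl14 (0.87 ± 0.27), Ccl5 (0.59 ± 0.20) and Pf4 (0.55 ± 0.10) rose at the tumour step and Ccl24 (-0.79 ± 0.12) fell, with a median of 0.03 over the 7, and 4 of 7 is near the 48.4% of all genes.

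The genes whose group means ran most like those of each chemokine were listed by Pearson's r over the 11 group means, which share the same libraries. The profile of Cx3cl1 was nearest to Nedd9 (0.994), Epb41l1 (0.993) and Itga6 (0.992), and that of Cxcl16 to Neurl3 (0.992), Ppp1r18 (0.99) and S1pr2 (0.989). Cxcl12 ran most like Lgr5 (0.993), 0610031O16Rik (0.992) and Ptprd (0.983), and Ccl2 like Tnfrsf12a (0.991), Myo1f (0.986) and Leprot (0.984). Cxcl10 was nearest to Rnf128 (0.978), Mcm2 (0.976) and Nagk (0.975), Cxcl1 to H13 (0.975), Cpne8 (0.959) and Gab2 (0.959), Cxcl13 to Zswim5 (0.974), Papola (0.965) and Zfp982 (0.961), and Ccl9 to Mogat2 (0.969), Prss8 (0.963) and Tff3 (0.94).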

How the data were processed

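The authors deposited 1 table of log2 values, regularized (rlog2) per its name, with 24511 genes and 41 columns. The submitters' processing notes list Cuffdiff beside STAR in HFD libraries, and HOMER and DESeq2 beside STAR in NC ones (genome mm10, versions and order not given). Whether both sets were normalized together is not given in the sources used here. Per the labels' protocols, RNA came from AllPrep columns, or for some livers from Trizol and RNeasy, and libraries from a stranded mRNA kit. Columns were matched to groups by name, and 6 were not used. HFD and HCC libraries carry the last number of their column, NC libraries that of their title. Genes with a mean of at least 3 were fitted with limma 3.58.1 in R 4.3.3 (1 mean per group, 11 groups, trended eBayes, two-sided, Benjamini-Hochberg over 12337 genes, threshold 0.05). All members were described. From each pathway list the 4 called genes with the largest change in NASH against HFD control and in HCC against NASH were named, with the 3 genes most like each called member. Other genes were named after their values were seen. The members and lists were chosen with earlier results of these data known. The script was tested on simulated data. Alternatives were filters, scalings, weights, other sets of libraries and leaving out each library. Marker sums are log2 of summed linear values.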

Additional observations from a re-analysis of the deposited data

Results flagged for a closer look

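Ccl6 in MupHe HCC 2 was 7.55, far from the other 3 MupHe tumours (6.42 to 6.54). Its gap to the nearest of them, as a share of the range of the 4, exceeded Dixon's critical value at the 95% level, which chance exceeds in about 1 in 20 sets. It was the only one of 20 sets of 4 tumours to do so. The tumour step of Ccl9 differed by -1.61 log2 (IgAkMup minus MupHe, where genotype and column tag cannot be told apart). The HCC against NC difference of Ccl6 differed by 1.43 log2 (CD8kMup minus IgAkMup). These were 2 of 50 such differences tested over the 10 genes. Neither was refitted without the tumours that stood apart.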

How the results depend on the processing

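Counts are of the 10 chemokines past the threshold. NASH against HFD control gave 0, but 2 with weights per library (Cxcl10 and Cxcl16), and 0 to 1 with 1 library left out (1 without B6 HFD control 3). Weights raised the genes called of all from 163 to 2386. HCC against NASH gave 8, or 5 with a mean of at least 5, which removes Ccl2, Cxcl13 and Cx3cl1, and 8 to 9 with a library left out. The difference of the steps gave 5, or 3 with that filter and 3 with only its own groups in the fit, and 4 to 6 with a library left out. NASH against NC gave 2, but 6 with only its own groups and 5 with weights, and 1 to 2 with a library left out (1 without IgAkMup NASH 3). Genes called of all were 1976 in its main fit, 4459 with only its own groups and 5316 with weights. HCC against NC gave 10, and 7 to 10 over all settings. B6 HFD control against B6 NC gave 2, or 1 without a filter and 1 with quantile normalization, and 0 to 3 with a library left out (0 without B6 NC 1 or B6 HFD control 3, 1 without B6 NC 2 or B6 HFD control 1). IgAkMup against MupHe HCC gave 1, or 0 with only these groups and 0 with weights, where genes called of all fell from 1249 to 0 and 375. CD8kMup against MupHe HCC gave 0, or 1 without the 3 tumours that stood apart, and 0 to 1 with a library left out (1 without MupHe HCC 2 or 4). CD8kMup against IgAkMup HCC gave 4, or 0 with only these groups and 2 without the 3 tumours, and 2 to 4 with a library left out (2 without IgAkMup HCC 5 or any CD8kMup tumour). The Mup genotypes against B6 gave 0, or 1 with the NC libraries alone and the replicate number as a block. Replicate numbers did not pair NC libraries (correlations of -0.21 to 0.23, 3 of 18 pairs over 0.1). Calls as higher made up 40.7% of calls in IgAkMup against MupHe HCC and 51.9% with quantile normalization, and 84% and 68% for the Mup genotypes against B6.

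Signs per gene were compared for NASH against HFD control, HCC against NASH and the difference of the steps. There they turned only for values that had not passed. Cxcl12 at NASH was -0.0078 with median centring and -0.14 within Tri N, and -0.042 to 0.0983 with a library left out. Within tags, Ccl9 was -0.0087 (Tri N) and Ccl2 -0.11 (SS N). Cxcl9 was -0.0035 for MupHe HCC minus IgAkMup NASH, and its difference of steps was -0.18 with weights and -0.12 to 0.21 with a library left out. The causes were not tested. Unknown depth leaves the precision of low genes such as Cxcl13 open to the replicate spread alone.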
